A study of Mus musculus with 6 samples.

Results

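The T cell receptor β chain is encoded at a single mouse locus, Trb, on chromosome 6, and the members described here were its V and J segments, the Trbv and Trbj genes. They were taken as every row of the deposited table whose gene symbol begins with Trbv or Trbj, which gave 40 of 19323 genes: 26 Trbv and 14 Trbj. The table covers RNA of CD8+ T cells from the spleens of wild-type C57BL/6 mice that were 6 weeks old at the start and then had 7 weeks of either diet. One diet is MCDHFD, given in the labels as a mouse model of MASH (inflamed fatty liver disease), and the other is ND. There were 3 MCDHFD and 3 ND libraries. The labels spell out neither diet name, do not say how the cells were isolated, and do not say that the replicates were separate animals. Every p-value below is thus set against the spread among these libraries, which may be technical.

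A T cell builds its β chain gene by joining a V, a D and a J segment, and the joined exon is spliced to a constant gene, Trbc1 or Trbc2. The V segment supplies most of the variable domain, including the antigen-binding loops that differ from segment to segment, and the J segment supplies its last strand. J segments that lie 3′ of the joined one stay in the primary transcript until splicing removes them. The chain pairs with an α chain and reaches the surface with the CD3 chains. Since each T cell uses mostly one joined V segment, the shares of V segments in the RNA of many T cells describe how often each segment is used and how strongly it is expressed.

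By the GENCODE M21 annotation on mm10, 22 of the Trbv rows are of functional gene type and 4 of pseudogene type (Trbv12-3, Trbv22, Trbv24 and Trbv25), out of 35 annotated Trbv genes. All 14 annotated Trbj genes had a row, 13 of functional type and 1, Trbj2-6, a pseudogene. Of the 40 segments, 39 lie on the plus strand, and Trbv31, which lies 3′ of both constant genes, on the minus strand. The deposited values are normalized counts, that is, read counts divided by a factor for each library. Their totals were 14119816 to 14752121 per library, and whole reads could be recovered for 5 libraries, all but ND replicate 3. These held 2372 to 3179 Trbv reads and 206 to 314 Trbj reads in MCDHFD libraries, against 5969 and 6179 Trbv reads and 496 and 537 Trbj reads in ND libraries. Cd8a, the gene of a CD8 chain, was abundant in both diets, with 5264 ± 458 normalized counts in MCDHFD libraries and 13784 ± 350.4 in ND libraries (SD, n = 3 each).

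The V segments were lower as a class in MCDHFD libraries, and so were the J segments. Summed over all 26 rows, Trbv RNA was 2992, 2881 and 2653 normalized counts in the MCDHFD libraries, against 5843, 6011 and 5561 in the ND libraries. Every MCDHFD library lay below every ND library, and the MCDHFD sum was 0.489 of the ND sum, a difference of -1.03 on the log2 scale. The J segments gave 295.5, 260.4 and 230.4 normalized counts in MCDHFD libraries and 486, 522 and 505 in ND libraries, a log2 difference of -0.95, again without overlap. These sums over members were not tested. In bulk RNA, fewer T cells in the sample and less receptor RNA per T cell cannot be told apart.

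**Figure D1:**
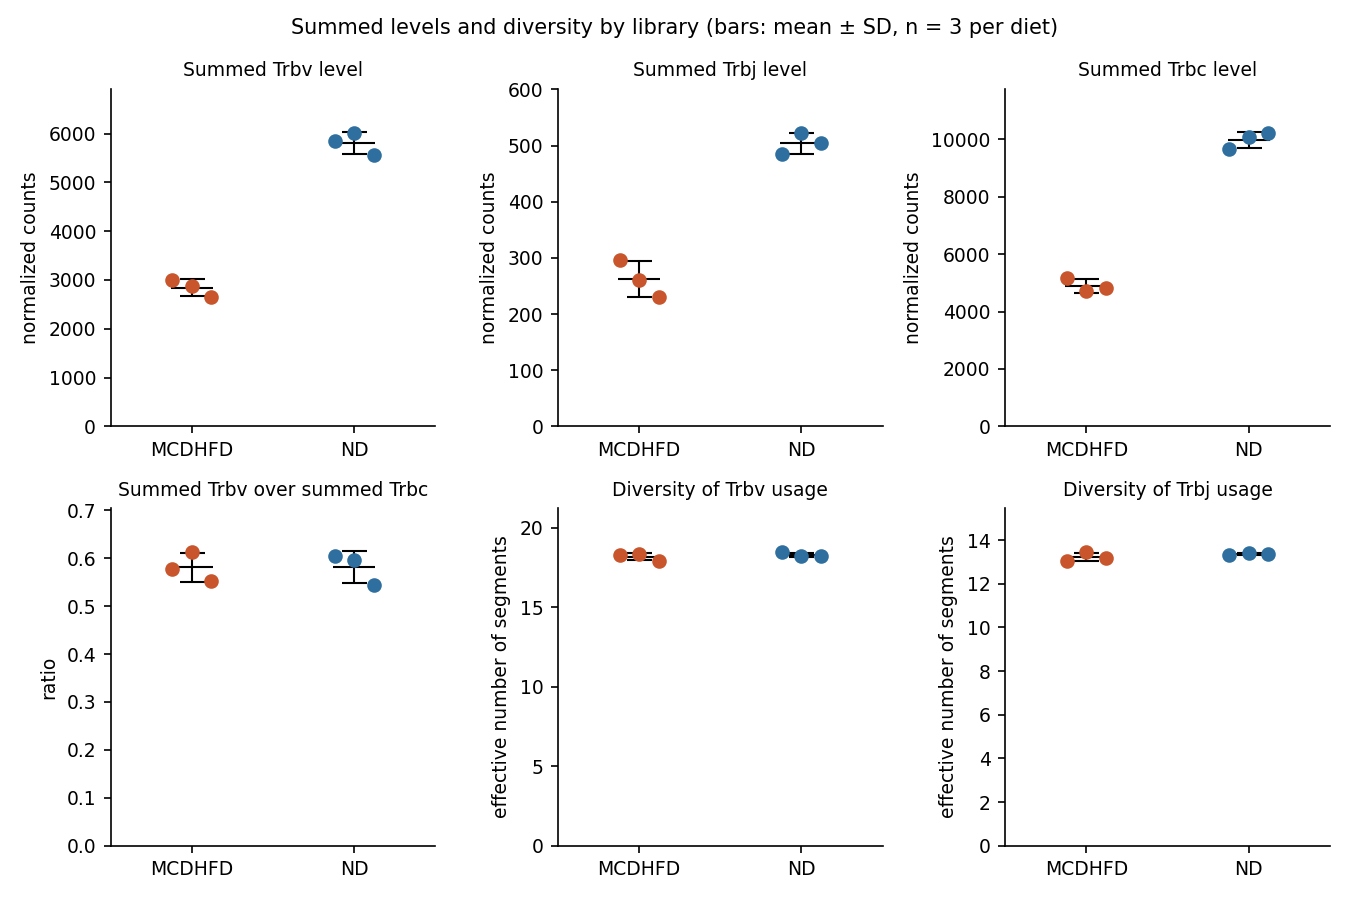
Summed normalized counts of Trbv, Trbj and Trbc genes, the ratio of summed Trbv to summed Trbc, and the effective number of segments, by library (points) with mean and SD (bars, n = 3 per diet); all axes start at 0. The 3 sums are lower in every MCDHFD library than in every ND library, while the ratio (0.581 in MCDHFD, 0.582 in ND) and both effective numbers overlap between the diets.

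Both constant genes and all 4 CD3 chain genes fell as well. Trbc1 fell to 1248 ± 42.1 normalized counts in MCDHFD libraries, against 2471 ± 129 in ND libraries (log2 fold change -0.98, SE 0.06, limma adjusted p = 1.67e-06). Trbc2 fell to 3647 ± 250.1, against 7516 ± 203 (log2 fold change -1.04, SE 0.06, limma adjusted p = 1.38e-06). The ratio of summed Trbv to summed Trbc was therefore nearly equal, 0.581 ± 0.0304 in MCDHFD and 0.582 ± 0.0327 in ND libraries (SD, n = 3 each), with overlapping diets. Against the summed CD3 chain genes (Cd3e, Cd3d, Cd3g and Cd247) the Trbv ratio was 0.385 ± 0.0195 in MCDHFD and 0.392 ± 0.00746 in ND libraries, also overlapping. The single CD3 chains differed among themselves, with log2 fold changes of -0.69 for Cd247, -0.72 for Cd3d, -0.997 for Cd3e and -1.49 for Cd3g. The α chain segments, counted in the same way, were lower by -1.14 on the log2 scale for summed Trav and by -1.25 for summed Traj. All 18 genes of a list of CD8 T cell identity genes, 4 of which are the CD3 chains, fell too, with a median log2 fold change of -1.06, beside a median of 0.00 over all 13430 tested genes. The list took 0.365 to 0.41% of all counts in MCDHFD libraries and 0.786 to 0.79% in ND libraries. When the libraries were scaled to an equal mean log2 level of the CD8 identity genes, the log2 difference of summed Trbv was 0.02 and that of summed Trbj 0.10.

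Genes of other cell types moved in both directions beside these sums, against a background of 30.3% of all tested genes that rose and 28.1% that fell. Of the 12 monocyte and macrophage markers tested, 11 rose and none fell, with summed levels of 1.62 to 1.97% of all counts in MCDHFD libraries and 0.351 to 0.424% in ND libraries. All 8 tested neutrophil markers (median log2 fold change 3.50) and all 9 erythroid markers (2.81) rose, whereas all 10 B cell markers fell (-1.89), as did 7 of 8 dendritic cell markers (-2.13), and 3 of 6 plasma cell markers rose (0.71). None of the markers in these 6 lists was at 0 in all libraries of a diet. Trdc, the constant gene of the γδ receptor, which uses no Trb segment, fell to 68.7 ± 18.8 normalized counts in MCDHFD libraries, against 153 ± 33.0 in ND libraries (log2 fold change -1.16, SE 0.23, limma adjusted p = 0.00247). Of 3 tested genes of γδ T cells, 2 fell and 0 rose. The part of these changes in the segments' lower level was not tested.

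Single segments were then fitted with limma on log2 of the value plus 1, over the 13430 genes that averaged 10 or more counts across the 6 libraries. 22 of 26 Trbv segments passed this filter, all but Trbv12-3, Trbv21, Trbv22 and Trbv25, as did all 14 Trbj segments. Of the 22 tested Trbv segments, 20 (90.9%) fell at a Benjamini-Hochberg adjusted p under 0.05 and 0 rose. Over all tested genes, 28.1% fell. edgeR and DESeq2 on the recovered reads of 5 libraries also called 0 Trbv segments higher, and limma gave none a positive fold change. The diets did not overlap for the same number, 20 of 22, beside 32.3% of all tested genes that lay lower in MCDHFD without overlap. The median log2 fold change of the tested Trbv segments was -1.08, and the range was -1.92 to -0.09.

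**Figure D2:**
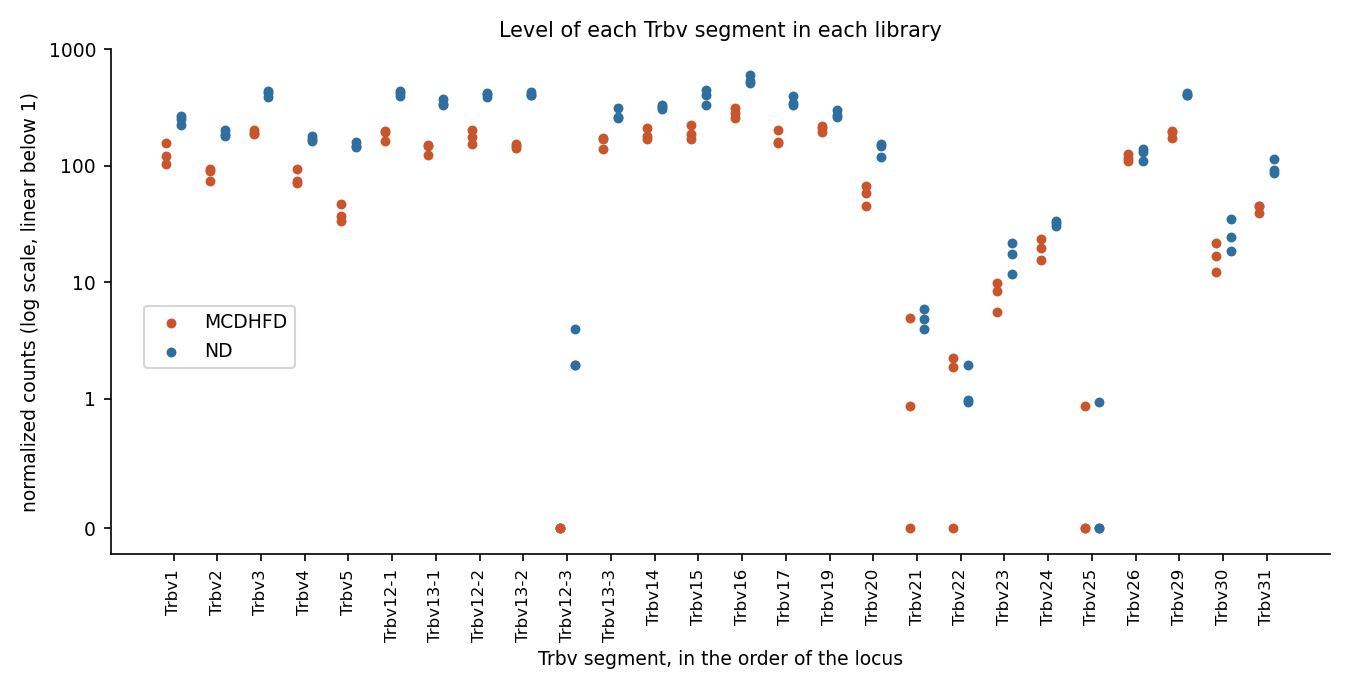
Normalized counts of all 26 Trbv segments in each of 3 MCDHFD and 3 ND libraries (points), in the order of the locus; the vertical axis is logarithmic and linear below 1. Most MCDHFD points lie under the ND points of the same segment, while those of Trbv26 (110.1 to 127 in MCDHFD, 109 to 139 in ND) and Trbv30 overlap.

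Levels of different segments can be compared only per exonic base. On that scale Trbv16 was the highest V segment in both diets, with 71.9 normalized counts per 100 bases in MCDHFD and 138 in ND libraries. Its counts were 314, 286 and 258 in the MCDHFD libraries, against 514, 595 and 538 in the ND libraries (log2 fold change -0.94, SE 0.10, limma adjusted p = 5.23e-05). Trbv3 had 190.1, 202 and 189 normalized counts in MCDHFD libraries, against 423, 441 and 393 in ND libraries (log2 fold change -1.11, SE 0.09). Both diets were tight and far apart for these segments. Trbv29 likewise had 198, 195 and 174 counts in MCDHFD and 403, 418 and 409 in ND libraries (log2 fold change -1.12, limma adjusted p = 1.04e-05). Trbv29 is among the β chain segments that invariant NKT cells favour in mice, together with Trbv13-2 and Trbv1.

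Trbv15 spread more, at 186, 223 and 170.0 normalized counts in MCDHFD and 403, 447 and 333 in ND libraries (log2 fold change -1.02, SE 0.14). Trbv17 had 201, 156 and 161 counts in MCDHFD and 399, 348 and 333 in ND libraries (log2 fold change -1.06, SE 0.13). For both, the lowest ND library stayed above the highest MCDHFD library. Trbv12-1 had 199.5, 194 and 162 counts in MCDHFD and 442, 417 and 398 in ND libraries (log2 fold change -1.18), and Trbv12-2 had 202, 178 and 153 in MCDHFD and 388, 412 and 425 in ND libraries (log2 fold change -1.20). The exonic sequences of Trbv12-1 and Trbv12-2 are 87.4% identical, and those of Trbv13-2 and Trbv13-3 90.6%, so the division of reads within these families is uncertain where the counting could split them.

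The lowest tested segments had wider errors, and Trbv23 and Trbv24 fell while Trbv30 did not pass. Trbv23 had 8.47, 9.83 and 5.59 normalized counts in MCDHFD and 21.5, 17.5 and 11.9 in ND libraries (log2 fold change -0.997, limma adjusted p = 0.0477). Trbv24, of pseudogene type, had 23.5, 19.7 and 15.7 in MCDHFD and 33.3, 32.1 and 30.7 in ND libraries (log2 fold change -0.70, SE 0.25, limma adjusted p = 0.0393). Trbv30 had 16.9, 21.6 and 12.3 counts in MCDHFD, against 18.6, 24.3 and 34.6 in ND libraries, and the diets overlapped (limma adjusted p = 0.173). Trbv12-3 had 0 reads in each of the 3 MCDHFD libraries, which allows a share of all Trbv reads of up to 0.0944 to 0.126% per library (3 reads), and 2 reads in each of ND replicates 1 and 2. Trbv12-3 lay under the filter, and without it limma called Trbv12-3 lower in level (adjusted p = 0.0129) and in share (adjusted p = 0.0291). These calls rest on a few reads, and the fitted change of a gene at 0 depends on the pseudocount. Trbv21, Trbv22 and Trbv25 stayed at or under 5.87 normalized counts in every library.

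The segments that departed from the common fall were found by their shares of the summed Trbv level. Each library of the whole table was scaled to the same summed Trbv level and the same limma fit was run. Of the 22 tested segments, 2 (9.09%) rose, Trbv26 and Trbv19, and 2 (9.09%) fell, Trbv5 and Trbv13-2. After this scaling 83.2% of all tested genes rose and 3.34% fell, because the scaling raises every gene of the MCDHFD libraries alike, so these background values describe the scaling. The 4 that passed held 11.5% (Trbv19 and Trbv26) and 6.56% (Trbv5 and Trbv13-2) of the Trbv level in MCDHFD libraries, against 6.96% and 9.67% in ND libraries. Their 3′ ends are shown because these bases lead into the V-D-J joint, with Trbv16 as the segment of highest level per base. The capitals mark TGTGC, which starts with the codon of the conserved cysteine that opens the third antigen-binding loop. The sequences are those of GENCODE M21 transcripts on mm10, plus strand, last 40 bases of each segment.
Trbv26 (chr6:41227954-41227993): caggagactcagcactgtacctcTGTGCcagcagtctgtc
Trbv19 (chr6:41179009-41179048): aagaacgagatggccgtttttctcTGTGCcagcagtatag
Trbv5 (chr6:41062764-41062803): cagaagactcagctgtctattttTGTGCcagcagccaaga
Trbv13-2 (chr6:41121793-41121832): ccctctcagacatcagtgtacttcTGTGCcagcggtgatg
Trbv16 (chr6:41152191-41152230): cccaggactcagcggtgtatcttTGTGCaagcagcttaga

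TGTGC was searched on both strands of the last 40 bases. It was present in 23 of the 26 Trbv segments of the table (88.5%), in 26 of all 35 annotated Trbv (74.3%) and in 100 of 128 annotated Trav segments (78.1%). The motif was therefore held in common by segments whose share rose, fell or did not pass the test.

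Trbv26 had the largest rise in share. It made up 4.25, 3.82 and 4.43% of the Trbv level in MCDHFD libraries, against 2.38, 2.17 and 1.96% in ND libraries (log2 fold change of usage 0.94, SE 0.15, limma adjusted p = 1.02e-04). In counts it was 127, 110.1 and 117 in MCDHFD and 139, 130.4 and 109 in ND libraries, a log2 fold change of level of -0.09 that did not pass (SE 0.14, limma adjusted p = 0.618). So the share rose while the level overlapped between diets and the summed Trbv level was lower.

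Trbv19 made up 7.36, 6.82 and 7.97% of the Trbv level in MCDHFD libraries and 4.52, 4.97 and 4.89% in ND libraries (log2 fold change of usage 0.62, SE 0.12, limma adjusted p = 4.33e-04). Its level did fall, with 220.2, 197 and 211 counts in MCDHFD against 264, 299 and 272 in ND libraries (log2 fold change -0.41, SE 0.10, limma adjusted p = 0.0063). This was the smallest fall among the 20 segments whose level passed.

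Trbv5 fell furthest. It had 47.1, 37.3 and 33.6 normalized counts in MCDHFD libraries, against 162, 147 and 144 in ND libraries (log2 fold change -1.92, SE 0.17, limma adjusted p = 1.98e-05). Its share was 1.57, 1.30 and 1.26% in MCDHFD and 2.76, 2.44 and 2.58% in ND libraries (log2 fold change of usage -0.91, SE 0.18, limma adjusted p = 4.58e-04). Trbv5 and Trbv4 overlap the lincRNA gene 5830405F06Rik on the same strand, so reads of these genes may not be separable. That lincRNA fell as well, to 52.0 ± 11.3 counts in MCDHFD, against 128 ± 13.9 in ND libraries (log2 fold change -1.30, SE 0.19, limma adjusted p = 4.06e-04). The share of Trbv4, which overlaps it too, did not pass, with 2.82 ± 0.409% in MCDHFD and 2.96 ± 0.0438% in ND libraries (limma adjusted p = 0.648).

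Trbv13-2 made up 4.91, 5.29 and 5.35% of the Trbv level in MCDHFD libraries, against 6.89, 7.10 and 7.23% in ND libraries (log2 fold change of usage -0.45, SE 0.12, limma adjusted p = 0.00301). Its level was 147, 152 and 142 counts in MCDHFD and 402, 427 and 402 in ND libraries (log2 fold change -1.47, SE 0.09). Its near copy Trbv13-3 had 5.64 ± 0.325% in MCDHFD and 4.80 ± 0.395% in ND libraries (log2 fold change of usage 0.23, SE 0.13, limma adjusted p = 0.103). Summed over Trbv13-1, Trbv13-2 and Trbv13-3, the share was 15.7, 15.5 and 16.1% in MCDHFD and 17.1, 18.6 and 17.8% in ND libraries, which did not overlap. Trbv1 and Trbv29, which share with Trbv13-2 the use by invariant NKT cells, did not pass (log2 fold changes of usage 0.05 and -0.09, limma adjusted p = 0.788 and 0.456). The share of Trbv29 was still lower in every MCDHFD library (6.61, 6.76 and 6.58%) than in every ND library (6.90, 6.96 and 7.35%), while that of Trbv1 overlapped.

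**Figure D3:**
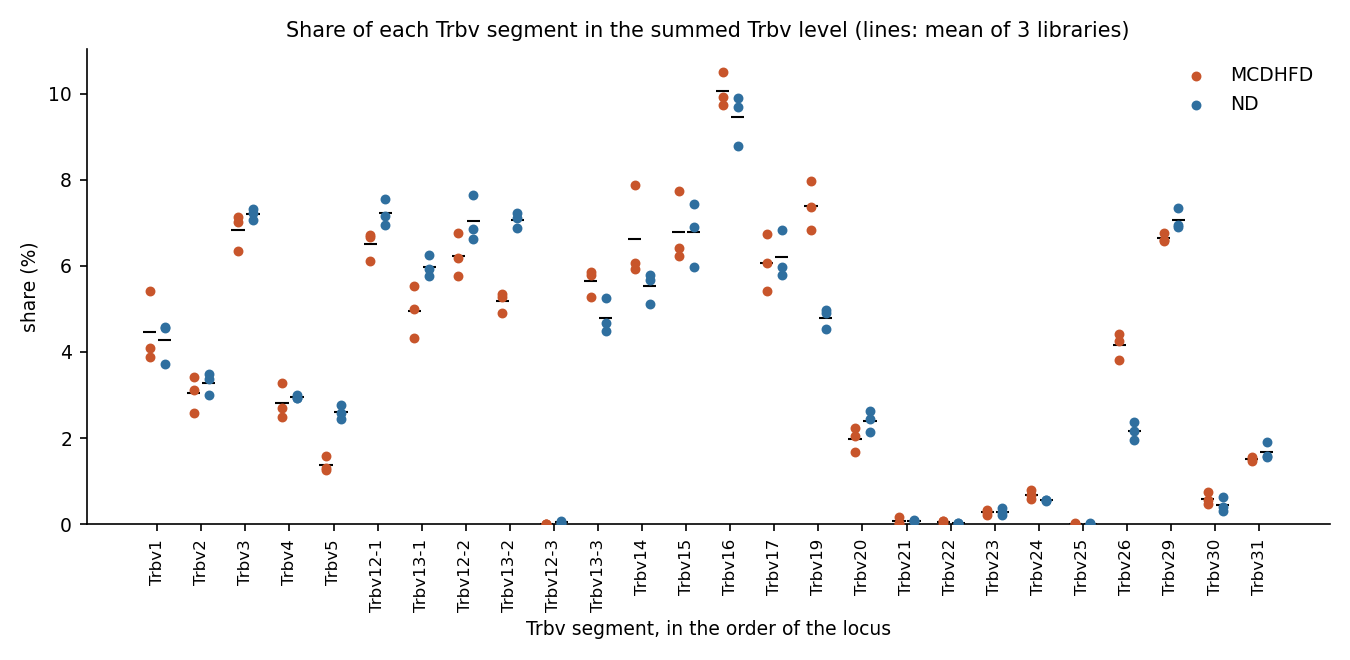
Share of each Trbv segment in the summed Trbv level, in %, for 3 MCDHFD and 3 ND libraries (points) with the mean of each diet (lines), in the order of the locus. Trbv19 and Trbv26 are higher and Trbv5 and Trbv13-2 lower in every MCDHFD library than in every ND library. Among the other tested segments, Trbv14, Trbv13-3 and Trbv24 are likewise higher, and Trbv12-1, Trbv29 and Trbv13-1 lower, though their shares did not pass. Trbv26 averages 4.16% in MCDHFD and 2.17% in ND.

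The counting limits of the shares did not overlap between diets for 3 of these 4 segments. Over the libraries with recovered reads, the 95% Wilson limits of the share ran from 3.19 to 5.33% in MCDHFD and from 1.83 to 2.80% in ND for Trbv26, and from 5.97 to 9.13% in MCDHFD and 4.02 to 5.54% in ND for Trbv19. For Trbv5 they ran from 0.887 to 2.07% in MCDHFD and 2.09 to 3.21% in ND. For Trbv13-2 they touched, at 4.21 to 6.33% in MCDHFD and 6.27 to 7.77% in ND. These limits treat each read as independent and leave out the spread between libraries. The libraries are not stated to carry molecular identifiers, so the reads may not be independent.

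The other 18 differences of share did not pass. Among them, the shares of Trbv14, Trbv13-3 and Trbv24 were higher in every MCDHFD library than in every ND library. Those of Trbv12-1, Trbv29 and Trbv13-1 were lower in every MCDHFD library. Trbv13-1 had 5.0, 4.33 and 5.52% in MCDHFD and 5.76, 6.26 and 5.93% in ND libraries, without overlap (log2 fold change of usage -0.28, SE 0.13, limma adjusted p = 0.0659). It passed without MCDHFD replicate 3 (adjusted p = 0.0246). Trbv30 had 0.566, 0.751 and 0.464% in MCDHFD and 0.318, 0.405 and 0.623% in ND libraries (log2 fold change of usage 0.41, SE 0.35, limma adjusted p = 0.277). Trbv24 had 0.686 ± 0.0982% in MCDHFD and 0.552 ± 0.0178% in ND libraries, without overlap (log2 fold change of usage 0.29, SE 0.27, limma adjusted p = 0.319). Trbv20 had 1.99 ± 0.278% in MCDHFD and 2.40 ± 0.25% in ND libraries, with overlap (log2 fold change of usage -0.27, SE 0.18, limma adjusted p = 0.171). Trbv14 had 6.07, 5.94 and 7.88% in MCDHFD and 5.68, 5.11 and 5.78% in ND libraries, where MCDHFD replicate 3 stands above all others (log2 fold change of usage 0.25, SE 0.14, limma adjusted p = 0.11). Trbv16, the highest segment per base, had a share of 10.1 ± 0.4% in MCDHFD and 9.46 ± 0.587% in ND libraries that did not pass (limma adjusted p = 0.432).

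Diversity of V usage overlapped between the diets in spite of these shifts. The effective number of Trbv segments, the exponential of the Shannon entropy of the shares, was 18.3, 18.3 and 17.9 in MCDHFD libraries and 18.5, 18.2 and 18.2 in ND libraries. The inverse Simpson index, which weights common segments more, was 16.5 ± 0.147 in MCDHFD and 16.7 ± 0.217 in ND libraries (SD, n = 3 each), with overlap. Both indices describe V segments, not the number of distinct β chains, and a shift between segments of similar share can leave them nearly unchanged. The number of Trbv segments above 0 was 25, 23 and 23 in MCDHFD and 26, 25 and 25 in ND libraries, at the lower Trbv read numbers of MCDHFD. The 8 segments of highest mean count took 54.8, 55.1 and 53.2% of the level in MCDHFD libraries, against 57.7, 58.3 and 58.1% in ND libraries, without overlap. These 8 were picked by mean count over all 6 libraries, in which the higher ND counts weigh more. They include Trbv13-2 but not Trbv19, which held 7.38% in MCDHFD libraries, so the size of this gap depends on the choice.

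The profiles as a whole were compared by the Bray-Curtis distance, the share of the profile that differs between a pair of libraries. For Trbv it was 7.88 to 9.64% in the 9 pairs of an MCDHFD and an ND library, and 3.84 to 6.60% in the 6 pairs of the same diet. For Trbj the ranges overlapped, at 4.21 to 9.76% between diets and 2.65 to 9.46% within a diet. The V profiles thus lay farther apart between diets than within them in every pair, and the J profiles did not.

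All 14 J segments fell in the limma fit (100%, beside 28.1% of all tested genes) and 0 rose, with log2 fold changes from -1.10 to -0.75 and a median of -0.95. The diets overlapped for none of them, beside 32.3% of all tested genes lower without overlap. J segments are 46 to 54 bases long and few reads fall on each. Without ND replicate 3 the fit called 9 lower, and on the recovered reads of 5 libraries edgeR called 9 and DESeq2 4. edgeR and DESeq2 also called 0 higher.

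The sequences of the J segments named below show what sets 3 of them apart. Capitals mark TTNGGNNNNGGN, the phenylalanine-glycine-any-glycine motif with which a functional J segment begins its last strand, and the sequences are whole segments of GENCODE M21 on mm10, plus strand.
Trbj1-1 (chr6:41533864-41533911): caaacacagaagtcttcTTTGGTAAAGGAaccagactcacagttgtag
Trbj1-4 (chr6:41534811-41534861): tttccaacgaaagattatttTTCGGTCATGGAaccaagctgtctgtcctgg
Trbj1-6 (chr6:41535554-41535606): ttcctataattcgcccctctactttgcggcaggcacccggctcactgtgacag
Trbj1-7 (chr6:41535642-41535687): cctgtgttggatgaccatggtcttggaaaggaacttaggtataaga
Trbj2-6 (chr6:41543598-41543645): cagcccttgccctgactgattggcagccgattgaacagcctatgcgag
Trbj2-7 (chr6:41543810-41543856): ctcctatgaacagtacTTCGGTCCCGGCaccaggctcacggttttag

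The motif was found in 11 of 14 Trbj segments (78.6%) and in 46 of 60 annotated Traj segments (76.7%), and in none on the other strand. Trbj1-6, Trbj1-7 and Trbj2-6 hold no exact match, and they are shown without capitals. Trbj1-6 and Trbj1-7 are nonetheless annotated as functional type, and only Trbj2-6 as a pseudogene. Per 100 bases they had 57.3, 50.3 and 51.6 normalized counts in MCDHFD and 107, 87.4 and 87.9 in ND libraries, within or above the range of the other J segments of their clusters. Trbj1-6, the highest J segment per base in both diets, had 38.6, 24.6 and 28.0 normalized counts in MCDHFD and 53.8, 57.4 and 59.4 in ND libraries (log2 fold change -0.91, SE 0.22, limma adjusted p = 0.0072). Trbj2-6, the pseudogene, had 28.2, 22.6 and 23.5 in MCDHFD and 43.1, 37.9 and 45.5 in ND libraries (log2 fold change -0.75, SE 0.22, limma adjusted p = 0.0161). Trbj1-7 had 26.4, 20.6 and 22.4 in MCDHFD and 39.2, 41.8 and 39.6 in ND libraries (log2 fold change -0.78, SE 0.22, limma adjusted p = 0.0134). Trbj1-7 and Trbj2-6 together took 18.5, 16.6 and 19.9% of the Trbj level in MCDHFD and 16.9, 15.3 and 16.9% in ND libraries, with overlap. Without ND replicate 3 the fall of Trbj2-6 did not pass (log2 fold change -0.69, limma adjusted p = 0.0567).

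Among J segments with the motif, Trbj1-4 had 24.5, 25.6 and 17.9 normalized counts in MCDHFD and 39.2, 53.5 and 40.6 in ND libraries (log2 fold change -0.94, SE 0.25). Trbj1-5 had 23.5, 20.6 and 17.9 in MCDHFD and 44.1, 45.7 and 45.5 in ND libraries (log2 fold change -1.10, SE 0.22, limma adjusted p = 0.00238), the largest fall among J segments. Trbj1-3 had 20.7, 17.7 and 16.8 in MCDHFD and 39.2, 45.7 and 35.6 in ND libraries (log2 fold change -1.08, SE 0.23). These 3 lie side by side in the Trbj1 cluster, and their diets did not overlap.

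Per base, the level of the J segments tended to increase along each cluster from 5′ to 3′ in both diets, though not at every step. In the Trbj1 cluster the first segment, Trbj1-1, had 18.2 normalized counts per 100 bases in MCDHFD and 37.5 in ND libraries, and Trbj1-6 had 57.3 in MCDHFD and 107 in ND libraries. The last segment, Trbj1-7, was lower than Trbj1-6, at 50.3 in MCDHFD and 87.4 in ND libraries, and in MCDHFD Trbj1-3 (34.1) was lower than Trbj1-2 (39.3). In the Trbj2 cluster Trbj2-1 had 19.4 in MCDHFD and 41.8 in ND libraries, and Trbj2-7 had 45.4 in MCDHFD and 89.0 in ND libraries, after 51.6 in MCDHFD and 87.9 in ND for Trbj2-6. Spearman's correlation of position with level over the 7 segments of a cluster was 0.893 in each diet for Trbj1, and 0.964 in MCDHFD and 1 in ND for Trbj2, given as a description of segments that share the same libraries and the same primary transcripts. Gene counts do not tell reads of the joined exon from reads of unspliced RNA.

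**Figure D4:**
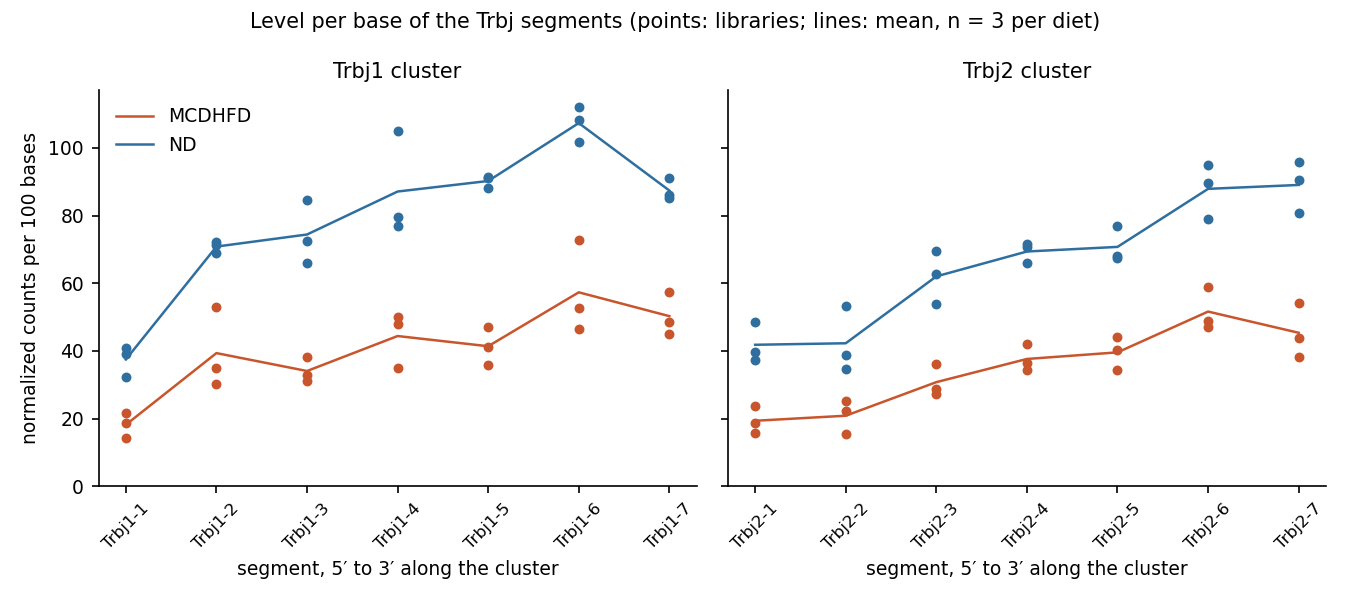
Normalized counts per 100 exonic bases of the 7 Trbj1 and 7 Trbj2 segments in each library (points) with the mean of each diet (lines, n = 3), ordered 5′ to 3′. Levels climb along most of both clusters, from 18.2 for Trbj1-1 to 57.3 for Trbj1-6 in MCDHFD, and are lower again at the last segment in 3 of the 4 lines (50.3 for Trbj1-7 in MCDHFD). The MCDHFD lines run below the ND lines throughout.

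No J segment's share passed the threshold. The SEs of the usage changes, from 0.28 for Trbj1-6 to 0.43 for Trbj1-1 on the log2 scale, were wide enough for changes of share to be missed. After scaling to equal summed Trbj, limma called 0 of 14 in either direction, beside 83.8% of all tested genes, and 0 had an unadjusted p under 0.05. The 83.8% describes the scaling, which raises every gene of the MCDHFD libraries. edgeR on the recovered reads also called 0. The log2 fold changes of usage ran from -0.18 (Trbj1-5, 7.96, 7.92 and 7.77% of the Trbj level in MCDHFD and 9.07, 8.75 and 9.02% in ND libraries) to 0.17 (Trbj2-6). The share of Trbj1-5 did not overlap between diets, but its SE of 0.30 on the log2 scale was larger than its change. The effective number of Trbj segments was 13.1, 13.4 and 13.2 in MCDHFD and 13.3, 13.4 and 13.4 in ND libraries. The Trbj2 cluster held 42.7, 49.1 and 45.1% of the Trbj level in MCDHFD and 44.6, 43.9 and 45.7% in ND libraries, so the MCDHFD libraries spread more widely around the ND ones. Its partner constant gene, Trbc2, held 74.5 ± 1.48% of summed Trbc in MCDHFD and 75.3 ± 0.89% in ND libraries. How reads that match both constant genes were counted is not stated, so this division is uncertain. At this depth the 95% Wilson limits of the Trbj2 share ran from 37.3 to 55.0% in MCDHFD and from 39.8 to 49.0% in ND libraries.

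The trypsinogen genes of the locus moved apart from the segments, unlike the lincRNA gene at Trbv4 and Trbv5, which fell. Trypsinogens are pancreatic digestive enzymes, and their genes lie between Trbv1 and Trbv2 and again between Trbv30 and the first D segment. Try5 had 151 ± 45.4 normalized counts in MCDHFD and 0.326 ± 0.565 in ND libraries (log2 fold change 6.88, SE 0.40, limma adjusted p = 1.58e-06). Try4 had 53.4 ± 21.9 in MCDHFD and 0 in each ND library, at least 18.2-fold higher over a floor of 3 reads per library, and Prss2 had 45.9 ± 20.3 in MCDHFD and 4.90 ± 0.0429 in ND libraries (log2 fold change 2.88, SE 0.39, limma adjusted p = 2.43e-04). These trypsinogens are near copies of one another, so their separate counts are uncertain. Their neighbours at the 3′ end, the J segments and constant genes, fell, and the part of pancreatic RNA in any library was not tested. The D segments Trbd1 and Trbd2 were listed at 1 read each in all 5 libraries with recovered reads, a value too low to compare and one that may not be a measured read.

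**Figure D5:**
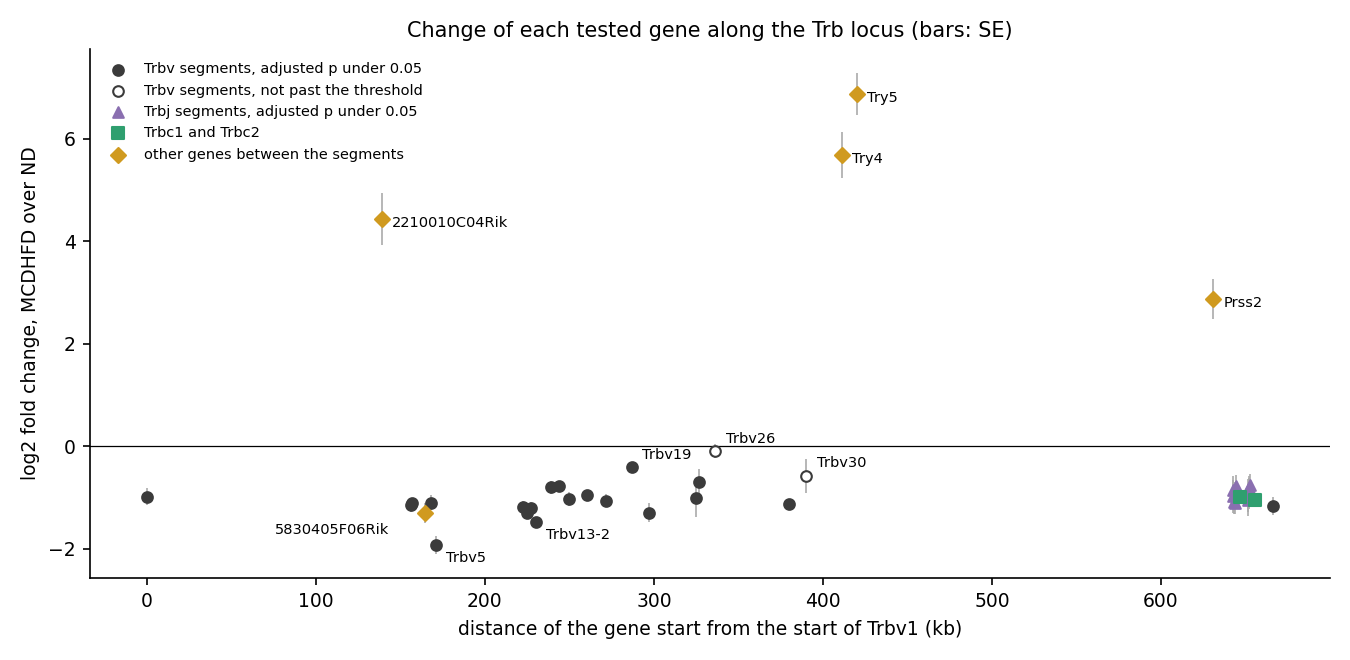
Log2 fold change (MCDHFD over ND, with SE) of each tested gene of the Trb locus against the distance of its start from the start of Trbv1, in kb; open circles did not pass the limma threshold. The V and J segments and the constant genes lie between -1.92 and -0.09, and Try5, at 6.88, and 3 other trypsin-family genes lie above 0, where the fitted value of Try4, listed at 0 in every ND library, depends on the pseudocount.

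Genes of the pathway that makes and carries the β chain are set here beside the 28.1% of all tested genes that fell and the 30.3% that rose. Of 13 tested genes of V(D)J recombination, 6 fell and 0 rose (median log2 fold change -0.34, beside 0.00 over all tested genes). Prkdc, the DNA-dependent kinase of end joining, fell to 876 ± 9.14 normalized counts in MCDHFD, against 1886 ± 57.6 in ND libraries (log2 fold change -1.11, SE 0.05, limma adjusted p = 5.22e-07). Polm and Poll, polymerases that fill the joints, fell as well (log2 fold changes -0.80 and -0.77). Dntt, which adds untemplated bases, had 44.5 ± 17.6 counts in MCDHFD and 80.0 ± 15.5 in ND libraries (log2 fold change -0.89, SE 0.30, limma adjusted p = 0.0286). Rag1, which cuts at the recombination signals, was at 0 in every MCDHFD library and averaged 0.975 normalized counts in ND libraries, too low to test, and Rag2 was not analysed here.

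Of 12 factors known at the Trb enhancer and promoters, 7 fell and 1 rose (median -0.18), beside the same 28.1% and 30.3% of all tested genes. Gata3 fell by 1.07 on the log2 scale, Bcl11b by 0.96 and Ets1 by 0.54, whereas Runx1 rose by 0.45 (limma adjusted p = 0.00406). Of 10 genes of receptor assembly in the endoplasmic reticulum, 4 rose and 0 fell (median 0.08), which is near the 30.3% of all tested genes that rose. The protein disulfide isomerase P4hb rose to 5449.5 ± 413 counts in MCDHFD, against 3231 ± 14.1 in ND libraries (log2 fold change 0.75, SE 0.06, limma adjusted p = 1.21e-05). The chaperone Canx rose by 0.46 on the log2 scale. Of 7 tested genes listed for NKT and innate-like T cells, 5 fell and 1 rose. Klrb1c had 31.7 ± 2.27 counts in MCDHFD and 28.7 ± 13.3 in ND libraries and did not pass (limma adjusted p = 0.573). Whether the changes in this list come from NKT cells was not tested. The gene of the list that rose, Zbtb16, the transcription factor PLZF, had 179 ± 13.3 counts in MCDHFD and 17 ± 6.49 in ND libraries (log2 fold change 3.40, SE 0.28, limma adjusted p = 1.33e-05), while Eomes, Tbx21, Il2rb, Klrd1 and Klrk1 fell. Of 6 genes of CD4 and regulatory T cells, 4 fell and 1, Zbtb7b, rose. Cd4 itself had 331 ± 48.3 counts in MCDHFD and 289.7 ± 32.4 in ND libraries and did not pass (limma adjusted p = 0.258). Of the 3 tested genes of thymocytes, the cells that rearrange the locus, Dntt and Tcf7 fell and Cd1d1 rose.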

How the data were processed

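TRIzol RNA went into libraries made with an ABclonal whole-RNA or mRNA kit, per the labels' protocols, which do not say which library had which kit. The submitters' processing notes name mm10 as the build. For aligner, counter, strand setting and annotation, nothing is given in the sources used here. Deposited values are a signal, normalized counts that the authors made by dividing read counts by a factor per library, per the file headers. Dividing each of 5 libraries by its smallest value above 0 gave whole reads for 100% of values (within 0.01), with totals of 13188812 to 15482458 reads. ND replicate 3 was kept out of the count tests, since its step lay near 1.

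Symbols were matched by gene identifier for 19202 of 19323 genes, and coordinates, lengths and segment sequences were taken from GENCODE M21, which may differ from the authors' annotation. Tested were the 13430 genes that averaged 10 or more counts, with limma 3.58.1 in R 4.3.3 (intensity trend, log2 of the value plus 1, diet as the only term, all 6 libraries). Fold changes are MCDHFD over ND of these logs, so changes of low genes come out too small. Benjamini-Hochberg adjustment ran over all tested genes, at 0.05. Usage was tested by the same fit after scaling each library to equal summed Trbv or equal summed Trbj. Shares are shares of counts and carry the lengths of the segments. Alternatives were other pseudocounts and filters, a replicate block, TMM and quantile scaling, scaling to equal CD8 identity genes or equal Trbc, leaving out each library, and count tests on the 5 libraries with recovered reads, in which edgeR 4.0.16 called 7136 and DESeq2 1.42.0 called 6715 of 13430 genes. The level fit and the Trbv usage fit were also run on simulated data, in which all genes shared a single dispersion. No change of a Trbj share was simulated, and the outcome is not given here. Given per library were the 8 Trbv and 5 Trbj of highest mean, the 3 Trbv and 2 Trbj with the highest and the lowest change of usage, and further members chosen after their values were seen. The members, lists and tests were chosen with earlier results of these data known.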

Additional observations from a re-analysis of the deposited data

How the results depend on the processing

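The 4 usage calls, Trbv26, Trbv19, Trbv5 and Trbv13-2, kept their direction and their side of the threshold in all 13 alternatives, and no J segment's share passed in any of them. Trbv12-3 joined the segments of lower share when no filter on low values was set, and Trbv13-1 without MCDHFD replicate 3 and, in an alternative chosen after seeing the data, with libraries scaled to an equal median segment level (log2 fold change -0.40, limma adjusted p = 0.0149). Leaving out each library in turn gave 18 to 19 Trbv and 9 to 14 Trbj segments lower, 2 to 3 Trbv shares lower, log2 differences of -1.07 to -0.98 for summed Trbv and -1.04 to -0.86 for summed Trbj, differences in effective number of -0.189 to 0.00419 (Trbv) and -0.244 to -0.0524 (Trbj), and -0.82 to 2.37 percentage points for the Trbj2 share. On 5 libraries edgeR called 9 and DESeq2 4 Trbj segments lower. With a mean of at least 50 no Trbj segment was left to test. Quantile scaling gave log2 differences of -1.13 for both summed Trbv and summed Trbj. Equal CD8 identity scaling, which moved the median of all genes by 1.05, left 2 Trbv segments lower, 2 higher and 0 Trbj lower, and equal Trbc scaling (1.03) left 3, 2 and 0. The log2 difference was then 0.0188 and -0.00189 for summed Trbv and 0.0996 and 0.0789 for summed Trbj (CD8 identity first, Trbc second). Single levels under each alternative were listed for 19 segments only. Among these 19, in the same order, levels turned positive for Trbv26 (0.95, 0.93), Trbv19 (0.64, 0.62), Trbv30 (0.43, 0.41), Trbj2-6 (0.27, 0.25), Trbj1-7 (0.24, 0.22), Trbj1-6 (0.12, 0.097), Trbv16 (0.11, 0.087), Trbj1-4 (0.073, 0.053) and Trbv15 (0.021, 0.00089). Segments outside the 19 may have turned positive too, since each of these scalings raised the median of all tested genes. Neither scaling was set by a Trbv or Trbj row. Same-numbered libraries correlated at 0.0365, 0.0621 and 0.0057, so the numbers were not taken as pairs; with a replicate block 18 Trbv and 14 Trbj segments were lower and 2 Trbv shares were higher and 2 lower, and ND replicate 3 correlated best with MCDHFD replicate 1. Depth limits the J segments most, with 206 to 314 reads over all of them per MCDHFD library.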

Other observations

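Trbd1 and Trbd2, the D segments of the locus, were listed at exactly 1 read in each of the 5 libraries with recovered reads, in both diets. Over the whole table, 15 genes showed this pattern. Whether such values are measured reads or come from how the table was made, for example an added count, was not tested, so they are not read as expression of the D segments.

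Several genes with trypsin-like products inside the locus were measured above 0 in MCDHFD libraries and at or near 0 in ND libraries. Beside Try5, Try4 and Prss2, 2210010C04Rik had 27.0 ± 7.23 normalized counts in MCDHFD and 0.33 ± 0.571 in ND libraries (log2 fold change 4.44, limma adjusted p = 9.02e-05). 1810009J06Rik was at least 2.82-fold and Prss3 at least 2.78-fold higher in MCDHFD libraries, over a floor of 3 reads per library, with 0 in each ND library. All of them lie within the span of the V, D and J segments, whose own levels were lower in MCDHFD libraries.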
